A study of Homo sapiens with 30 samples.

Results

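The genes described here are 37 that carry glucose into the cell and through glycolysis, lactate handling, the pyruvate dehydrogenase (PDH) complex and the pentose phosphate pathway. They were chosen by symbol from a fixed list. No cut-off on measured values was used, but earlier results of these data were known. The genes were matched in tables of 18132 RNA-seq and 20582 PRO-seq entries. Their roles divide into 2 glucose carriers, 2 hexokinases, 6 enzymes of upper glycolysis, 3 regulators of phosphofructokinase, 7 enzymes of lower glycolysis, 5 genes of lactate conversion and export, 7 of the PDH complex and its kinases, and 5 of the pentose phosphate pathway. The cells were G401, an established human malignant rhabdoid tumour line of the kidney, grown in DMEM with serum. DTMYC is a G401 derivative in which a lentivirus supplies MYC with an N-terminal HA-FKBP12F36V tag, after which the endogenous MYC gene was removed with CRISPR-Cas9. dTAG47 binds this tag and brings the fusion protein to the ubiquitin system, and DMSO is its solvent. RNA-seq covered DTMYC cells in 500 nM dTAG47, DTMYC cells in DMSO, parental G401 cells in 500 nM dTAG47 and parental cells in DMSO, all for 24 h, with 3 libraries each. PRO-seq, a readout of RNA polymerases in the act of transcription, covered DTMYC cells after 4 h in dTAG47 or in DMSO, with 2 libraries each. MYC ChIP-seq came from 3 dTAG47 and 2 DMSO libraries of DTMYC cells at 4 h, and ATAC-seq, which maps open chromatin, from 3 dTAG47 and 3 DMSO libraries of DTMYC cells at 24 h. Whether DTMYC is a single clone is not given in the sources used here, so a difference between DTMYC and parental cells holds the engineering, the source of MYC and any drift of the line together, and these cannot be told apart.

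Cells take up glucose through carriers of the SLC2A family, and hexokinase traps it as glucose 6-phosphate, which either runs down glycolysis to pyruvate or enters the pentose phosphate pathway to make ribose and NADPH. Pyruvate is reduced to lactate by lactate dehydrogenase and leaves through SLC16A carriers, or it enters the mitochondrion, where the PDH complex turns it into acetyl-CoA unless PDH kinases switch the complex off. MYC binds DNA with its partner MAX at E-boxes, of which CACGTG is the canonical form, and HK2, LDHA and ENO1 are long-standing examples of glycolytic genes with MYC at their promoters.

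RNA-seq libraries held 27854207 to 54633745 counts in genes, and PRO-seq libraries 18209879 to 23256313 in gene bodies and 1216928 to 1632084 in promoter-proximal regions. The labels do not say that replicates were separate cultures, so every p-value reflects nothing beyond the spread of these libraries. Parental DMSO replicate 3 stood apart, with a standard deviation of 0.355 for the deviations of its log2 levels from the group mean, against 0.149 to 0.244 in the other 11 libraries. The counts of calls that rest on it are also given without it, and so are some of the differences. All other differences from parental cells in DMSO include it. The mRNA of MYC was at 1478, 1404 and 1349 CPM (the count scaled to library size with TMM factors) in DTMYC cells in dTAG47, against 1329, 1353 and 1418 in DMSO. It was at 241.7, 226.4 and 236.7 CPM in parental cells in dTAG47, against 214.8, 267.1 and 222.6 in DMSO. dTAG47 acts on the protein, so these levels do not check its loss. The markers VIM, KRT8 and KRT18 were at 609.7 CPM or more in every library, and of 12 markers of blood, kidney epithelium, neurons, endothelium and liver 10 stayed at or under 1 CPM, with AQP1 reaching 1.09 and RBFOX3 1.03. SMARCB1, whose loss defines this tumour, was not analysed here in RNA-seq.

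MYC regions, meaning stretches with a peak in both DMSO libraries whose midpoint lay within 1000 bases of an annotated start site, were found at 8 of the 37 genes (21.6%), against 8.06% of 13063 genes tested in RNA-seq and annotated. They were HK2, GAPDH, ENO1, LDHA, LDHB, SLC16A1, DLAT and RPIA, and all but DLAT held at least 1 CACGTG. The regions differ in length, and CACGTG was not counted in the MYC regions of all genes, so this number has no background. The E-boxes of these regions are shown because genes with and without a MYC region are compared below. For HK2 and LDHA a stretch of the hg19 plus strand spans both copies, and for the others the copy nearest the region's midpoint is given on the strand of the gene, with CACGTG in capitals. The HK2 stretch is chr2:75062091-75062165, with the copies 194 and 149 bases before the nearest start site (-194 and -149). Both HK2 copies lie in an intron of an annotated transcript. The LDHA stretch is chr11:18415913-18416040, with copies at -182 and -84. The windows of the others are RPIA chr2:88991322-88991351 on the plus strand in a coding exon, LDHB chr12:21810332-21810361 on the minus strand, ENO1 chr1:8938500-8938529 on the minus strand, SLC16A1 chr1:113498998-113499027 on the minus strand and GAPDH chr12:6644337-6644366 on the plus strand. The last 4 lie in introns of annotated transcripts.
HK2: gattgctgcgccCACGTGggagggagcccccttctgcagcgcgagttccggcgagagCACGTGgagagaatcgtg
LDHA: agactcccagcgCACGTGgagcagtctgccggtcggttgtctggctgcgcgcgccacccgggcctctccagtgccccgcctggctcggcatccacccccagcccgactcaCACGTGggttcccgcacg
RPIA: ctcccgggttccCACGTGcggctgccgggg
LDHB: cgggagtcgggaCACGTGcccgagtagctg
ENO1: cggggtcgggggCACGTGcaagccgcctcc
SLC16A1: tgggacgccggtCACGTGgcggggaggggg
GAPDH: gctctgcggggtCACGTGtcgcagaggagc
In the 300-base RefSeq promoters (GRCh38.p14, 250 bases before to 50 after a start site), 34 of the 37 genes were matched, and CACGTG, which reads the same on both strands, lay in 9 of their 64 promoters (14.1%), against 2548 of all 35116 promoters (7.26%). Those 9 belonged to HK2, PFKFB3, ALDOA, ALDOC, GAPDH, LDHA, BSG, PDK2 and PDHB.

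Of the 37 genes, 32 were tested in RNA-seq. ENO2, the neuronal-type enolase, was not analysed here in RNA-seq. TPI1, PGK1, DLAT and TKT were listed near 0, with at most 8 counts in any library, and PRO-seq gene bodies of these 4 held at most 4 counts over all 4 libraries. The neighbours USP5, ATN1 and PHB2 of TPI1 were also listed at 3 counts or fewer in every library, while PGK1 had ATAC-seq peaks in all 6 libraries with scores of 604 to 1541. These genes are used by nearly every cell, so they are given as listed near 0, and no level was drawn from them.

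Levels were compared between genes per kilobase of the length the deposited table gives. In DTMYC cells the most abundant mRNAs were ENO1 with 564 ± 11.3 CPM per kb in dTAG47 against 634 ± 39.1 in DMSO, and GAPDH with 582 ± 16.5 in dTAG47 against 614 ± 65.9 in DMSO (SD, n = 3 each). Enolase and glyceraldehyde-3-phosphate dehydrogenase were thus within their spread of each other. In DMSO they were followed by LDHB at 363, PKM at 306, LDHA at 243 and ALDOA at 215 CPM per kb, and the lowest were ALDOC at 2.46, PDK1 at 1.14 and PFKFB4 at 0.962. GAPDH, PGAM1, LDHA, RPE and PKM have 65, 13, 6, 6 and 5 pseudogenes named after them, and reads shared with such copies make their levels uncertain. Exons of GPI, PFKM, PFKFB2, PFKFB4, ALDOA, LDHB, SLC16A3, PDK2, PDHA1, DLD and RPE overlap another protein-coding gene, and their values share that doubt. So do exons of TPI1, PGK1 and DLAT, which were not tested.

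After 24 h of dTAG47, 5 of the 32 tested mRNAs fell and 1 rose in DTMYC cells. HK2, which phosphorylates glucose, GPI, which isomerises glucose 6-phosphate, PFKFB3, which makes the activator of phosphofructokinase, SLC16A3, the lactate carrier MCT4, and RPIA, which makes ribose 5-phosphate, were those that fell. SLC2A3, the high-affinity glucose carrier GLUT3, rose. The share that fell was 15.6%, against 4.44% of all 13401 genes tested, and the share that rose was 3.12%, against 4.27% (edgeR's quasi-likelihood test, adjusted p under 0.05 over all genes). Over the 32 genes the median log2 change was -0.08, against 0.03 over all genes, and 19 were negative. In bulk libraries fewer cells of a type and less RNA per cell cannot be told apart.

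Both glucose carriers were well expressed. SLC2A3 had 587.6, 579.3 and 550.5 CPM in DTMYC cells in dTAG47, against 442.0, 469.3 and 431.4 in DMSO. Every dTAG47 library lay above every DMSO library, and the log2 change was 0.36 ± 0.06 (SE, adjusted p 0.00707 by edgeR). SLC2A1, the carrier GLUT1, had 292.9, 278.7 and 271.7 CPM in dTAG47, against 269.1, 256.7 and 282.7 in DMSO, with overlapping groups and a log2 change of 0.06 ± 0.10.

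Of the hexokinases, which catalyse the same step, HK2 passed the test and HK1 did not. HK2 had 129.4, 129.9 and 125.2 CPM in DTMYC cells in dTAG47, against 183.8, 170.7 and 185.1 in DMSO, a 1.40-fold fall with no overlap (log2 change -0.49 ± 0.07, edgeR's adjusted p 0.00248). HK1, the constitutive form, had 70.35, 65.86 and 67.55 CPM in dTAG47, against 72.66, 66.89 and 76.82 in DMSO, and its groups overlapped (log2 change -0.09 ± 0.07). In parental cells HK2 had 79.5, 88.64 and 88.05 CPM in dTAG47, against 79.7, 78.95 and 84.28 in DMSO, again overlapping. The difference of the responses, DTMYC minus parental, was -0.57 ± 0.10 for HK2 (edgeR's adjusted p 0.0315), and HK2 was the only member past the threshold, where 0.59% of all genes were called in that direction and 0.597% in the other. Leaving out any 1 DTMYC library or any 1 parental dTAG47 library ended this call, with adjusted p-values between 0.0535 and 0.116 and log2 differences between -0.61 and -0.54. Leaving out a parental DMSO library added calls, with 2 negative members of 32 without replicate 1 (6.25%, against 0.665% of all genes) and 4 without replicate 2 (12.5%, against 2.28%). Without parental DMSO replicate 3, the library that stood apart, 8 members were negative (25.0%, against 9.58% of all genes) and 3 were positive (9.38%, against 8.3%). The negative ones were then HK2, GPI, PFKFB2, PFKFB3, SLC16A1, PDK1, PDHA1 and RPIA, and the positive ones PFKFB4, ALDOC and TALDO1. In the fit of all 12 libraries RPIA, PFKFB3 and ALDOC came next in that comparison with differences of -0.58, -0.52 and 0.62 and adjusted p-values of 0.0545, 0.0669 and 0.0613.

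**Figure D1:**
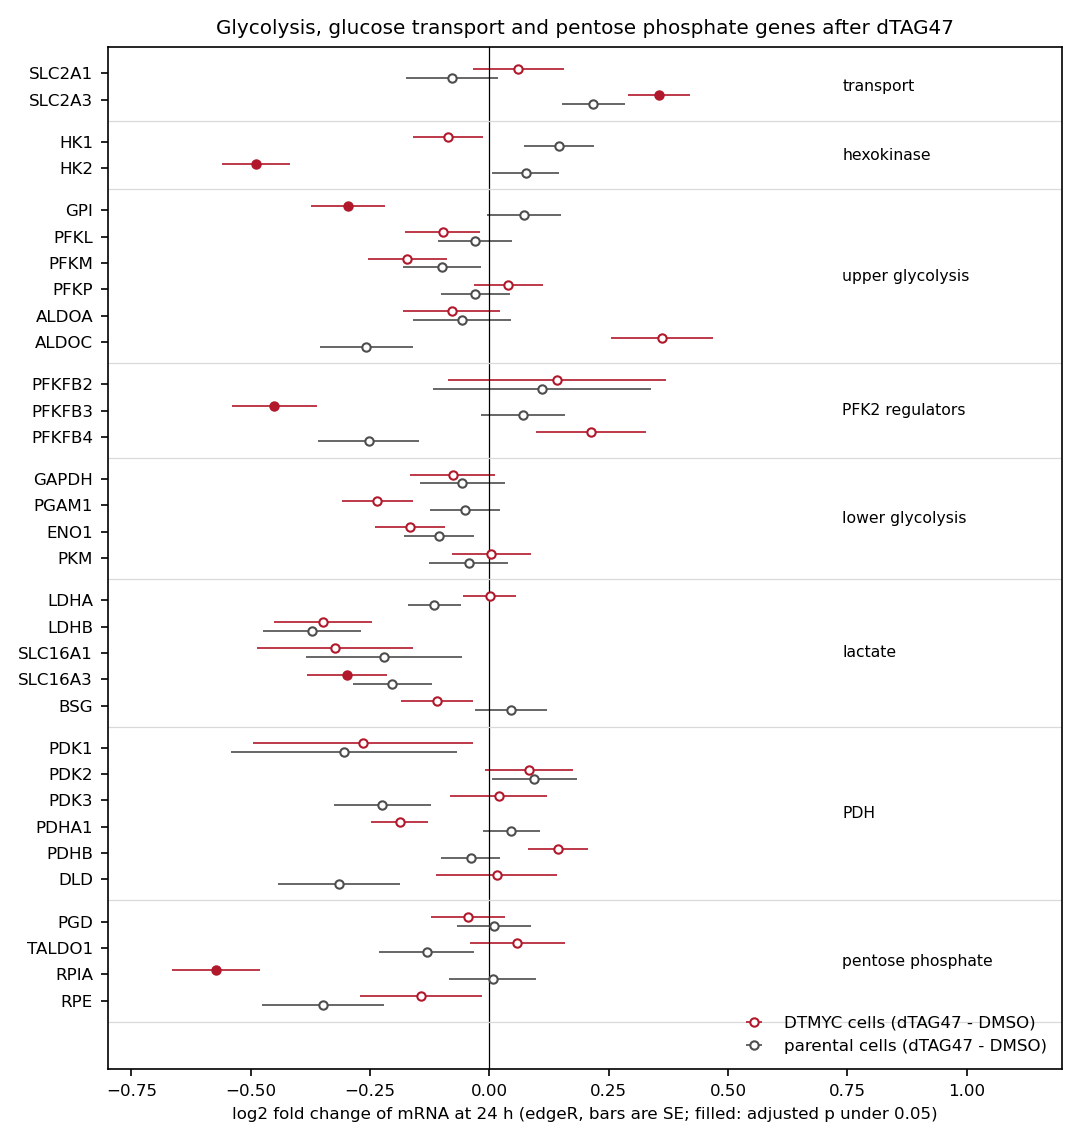
Log2 change of mRNA with SE at 24 h, dTAG47 against DMSO, for the 32 tested genes grouped by step, in DTMYC cells (red, upper point of each gene) and parental cells (grey, lower point); filled points passed an adjusted p of 0.05. In DTMYC cells 5 genes were filled on the negative side and SLC2A3 on the positive side, and no parental point was filled.

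In upper glycolysis only GPI passed the test. It had 379.9, 376.9 and 369.7 CPM in DTMYC cells in dTAG47, against 467.3, 431.0 and 485.6 in DMSO, with no overlap (log2 change -0.30 ± 0.08, edgeR's adjusted p 0.0343). The phosphofructokinase subunits PFKL, PFKM and PFKP, which form the committing enzyme, were at -0.10, -0.17 and 0.04, and aldolase A at -0.08. Aldolase C, a minor form here, had 9.28, 9.70 and 8.76 CPM in dTAG47, against 7.31, 6.53 and 7.75 in DMSO, just outside the threshold at 0.36 ± 0.11 on the log2 scale (adjusted p 0.0555 by edgeR). Of the enzymes that set fructose 2,6-bisphosphate, PFKFB3 had 37.71, 36.62 and 37.25 CPM in dTAG47, against 54.56, 48.06 and 49.91 in DMSO. Its groups did not overlap, and the log2 change was -0.45 ± 0.09 (edgeR's adjusted p 0.0106). PFKFB2 and PFKFB4 were at 0.14 ± 0.23 and 0.21 ± 0.12, neither past the threshold.

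None of the 4 tested enzymes of lower glycolysis passed the test. GAPDH was at -0.08 ± 0.09, phosphoglycerate mutase PGAM1 at -0.23 ± 0.07 (edgeR's adjusted p 0.0684), ENO1 at -0.17 ± 0.07 and pyruvate kinase PKM at 0.00 ± 0.08. In lactate handling LDHA had 1492, 1523 and 1520 CPM in DTMYC cells in dTAG47, against 1490, 1528 and 1516 in DMSO, a log2 change of 0.00 ± 0.06. LDHB, the subunit that favours lactate oxidation, had 840.3, 853.9 and 854.9 CPM in dTAG47, against 1085, 1060 and 1100 in DMSO. Its groups lay apart, at -0.35 ± 0.10 on the log2 scale (adjusted p 0.0552 by edgeR). SLC16A3 fell to 130.6, 125.3 and 120.4 CPM in dTAG47, against 163.7, 145.1 and 154.1 in DMSO (log2 change -0.30 ± 0.08, edgeR's adjusted p 0.0461). The other lactate carrier SLC16A1 (MCT1) had 250.3, 265.9 and 266.7 CPM in dTAG47, against 313.2, 350.3 and 316.1 in DMSO, at -0.32 ± 0.16 and not past the threshold, with groups that lay apart. The log2 change was -0.11 ± 0.08 for basigin (BSG), the chaperone of both carriers.

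No gene of the PDH step passed. The E1 subunits PDHA1 and PDHB were at -0.19 ± 0.06 (edgeR's adjusted p 0.0727) and 0.14 ± 0.06, the shared E3 subunit DLD at 0.02 ± 0.13, and the kinases PDK1, PDK2 and PDK3 at -0.27, 0.08 and 0.02. In the pentose phosphate pathway RPIA had 37.4, 38.28 and 41.69 CPM in DTMYC cells in dTAG47, against 58.41, 57.12 and 58.95 in DMSO. This 1.49-fold fall, with no overlap, was the largest among the 32 genes (log2 change -0.57 ± 0.09, edgeR's adjusted p 0.00426). The oxidative enzyme PGD was at -0.05 ± 0.08, transaldolase TALDO1 at 0.06 ± 0.10 and the epimerase RPE at -0.14 ± 0.13.

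**Figure D2:**
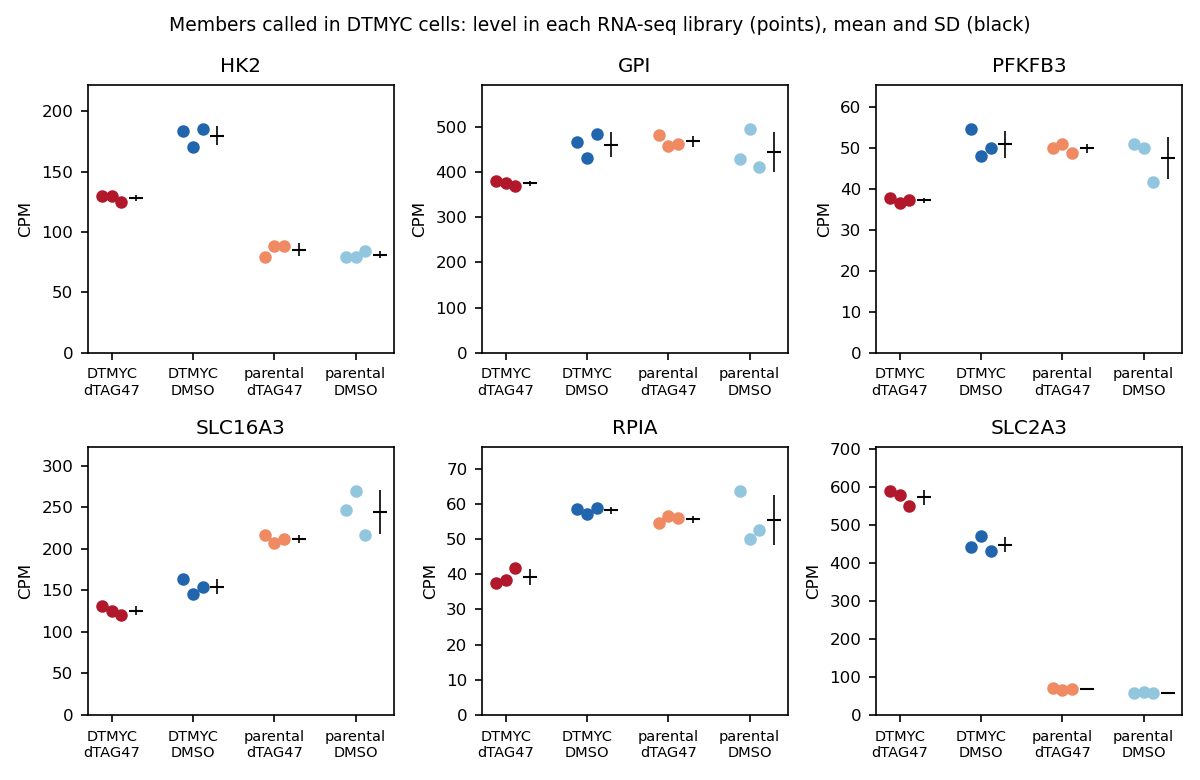
CPM of the 6 genes past the threshold in DTMYC cells, 1 point per RNA-seq library, with mean and SD in black; the groups are DTMYC dTAG47, DTMYC DMSO, parental dTAG47 and parental DMSO. HK2, GPI, PFKFB3, SLC16A3 and RPIA were lower in every DTMYC dTAG47 library than in every DTMYC DMSO library, and SLC2A3 was higher.

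HK2, RPIA and SLC2A3 passed under the main fit and all 17 alternatives, PFKFB3 under 15, GPI under 7 and SLC16A3 under 6. The number that fell was 2 without DTMYC dTAG47 replicate 2 or without DTMYC DMSO replicate 1 (6.25%, against 1.22% and 1.36% of all genes in those fits). It was 3 without DTMYC dTAG47 replicate 1 or 3, DTMYC DMSO replicate 3, or any 1 parental dTAG47 library (9.38%, against 1.23% to 3.36% of all genes). It was 13 without parental DMSO replicate 3 (40.6%, against 16.6% of all genes) and 14 in a fit of the 6 DTMYC libraries alone (43.8%, against 19.9%), where PFKM, PGAM1, ENO1, LDHB, SLC16A1, BSG, PDK1, PDHA1 and RPE were added. The number that rose was 2 in both of these fits, with ALDOC added (6.25%, against 12.7% and 16.5% of all genes), and also 2 without parental DMSO replicate 1 (against 5.37%).

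Parental cells carry no tagged MYC and show what the compound does by itself. None of the 32 genes passed in parental cells in dTAG47 against DMSO by edgeR, where 0.104% of all genes rose and 0.0224% fell. An unadjusted p under 0.05 was found in 8 of the 32, against 2074 of all 13401 genes. LDHB had 673.5, 788.2 and 787.2 CPM in parental cells in dTAG47, against 897.3, 858.1 and 1153 in DMSO. All dTAG47 libraries were below all DMSO libraries, the log2 change was -0.37 ± 0.10, close to that in DTMYC cells, and the adjusted p was 0.142 by edgeR, while DESeq2 called it. The difference of the responses for LDHB was 0.02 ± 0.14. The 1153 CPM came from DMSO replicate 3, the library that stood apart. The parental LDHB change, its closeness to that in DTMYC cells and this difference therefore rest in part on that library. SLC2A3 had 70.87, 64.45 and 67.71 CPM in parental cells in dTAG47, against 57.06, 60.03 and 57.48 in DMSO, without overlap, at 0.22 ± 0.07 and an adjusted p of 0.167, and its difference of responses was 0.14 ± 0.09. SLC16A3 had 216.4, 207.5 and 211.5 CPM in parental cells in dTAG47, against 246.5, 268.9 and 216.0 in DMSO, at -0.20 ± 0.08, with a difference of responses of -0.10 ± 0.12. Its parental groups overlapped, since DMSO replicate 3 lay just below the highest dTAG47 library. GPI had 482.3, 458.6 and 463.4 CPM in parental cells in dTAG47, against 428.8, 495.2 and 410.6 in DMSO. PFKFB3 had 50.04, 50.88 and 48.65 CPM in dTAG47, against 50.9, 50.01 and 41.59 in DMSO, and RPIA had 54.53, 56.44 and 56.04 in dTAG47, against 63.51, 50.08 and 52.62 in DMSO. The parental groups of these 3 genes overlapped, and for HK2, GPI, PFKFB3 and RPIA the parental log2 changes were 0.08, 0.07, 0.07 and 0.01. Without parental DMSO replicate 3, SLC2A3 and PFKFB2 rose in parental cells (6.25%, against 9.17% of all genes) and 7 genes fell (21.9%, against 10.9%), namely SLC2A1, PFKFB4, ALDOA, ALDOC, LDHB, SLC16A3 and TALDO1. Without parental DMSO replicate 2 LDHB fell (3.12%, against 1.14% of all genes).

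The comparison of the lines asks how the engineered cells differ from their parent without the compound. In DMSO 9 of the 32 genes were higher in DTMYC cells and 16 were lower by edgeR, where 36.0% of all genes were higher and 37.3% lower. SLC2A3 had the largest difference and was 7.69-fold higher in DTMYC cells in DMSO than in parental cells in DMSO (the levels are given above), with a log2 difference of 2.94 ± 0.07 and an adjusted p of 7.46e-12, and SLC2A1 was 2.28-fold higher, with 269.1, 256.7 and 282.7 CPM in DTMYC cells, against 126.0, 128.4 and 99.49 in parental cells. HK2 was 2.22-fold higher (log2 difference 1.15 ± 0.07), while HK1 was lower, with 72.66, 66.89 and 76.82 CPM in DTMYC cells, against 114.1, 113.9 and 104.1 in parental cells. PFKP, the platelet-type phosphofructokinase subunit, had 588.8, 554.9 and 605.3 CPM in DTMYC cells, against 257.3, 259.9 and 222.6 in parental cells. The liver-type subunit PFKL went the other way, with 122.7, 112.2 and 119.2 CPM in DTMYC cells, against 266.3, 252.9 and 223.8 in parental cells.

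Lower in DTMYC cells were ALDOC, by 2.42 ± 0.11 on the log2 scale, with 7.31, 6.53 and 7.75 CPM in DTMYC cells, against 41.44, 40.69 and 33.72 in parental cells. PFKFB4, which sets fructose 2,6-bisphosphate, had 6.004, 6.05 and 5.708 CPM in DTMYC cells, against 23.38, 19.62 and 18.54 in parental cells. PDK2, an inhibitor of the PDH complex, had 14.71, 13.54 and 14.77 CPM in DTMYC cells, against 31.6, 37.9 and 32.39 in parental cells. In each of these genes the lines lay apart without overlap. All 4 tested enzymes of lower glycolysis, GAPDH, PGAM1, ENO1 and PKM, were lower, by 0.31 to 0.61 on the log2 scale (-0.61, -0.31, -0.53 and -0.58). SLC16A1 was higher by 1.30 ± 0.17 and SLC16A3 lower by 0.66 ± 0.08 (-0.66). DLD and PDK1 were higher by 0.55 and 0.92, whereas PDHA1 and PDHB were at -0.24 and -0.51. In the pentose phosphate pathway PGD and TALDO1 were at -0.33 and -0.61, RPE at 0.80 and RPIA at 0.07, of which RPIA did not pass. Without parental DMSO replicate 3 the counts were 11 higher (34.4%, against 40.3% of all genes) and 17 lower (53.1%, against 41.1%), with PFKFB2 and LDHB added as higher and PFKM as lower. SLC2A3 was then at 2.92 ± 0.08, ALDOC at -2.52 ± 0.08, HK2 at 1.17 ± 0.07, SLC2A1 at 1.07 ± 0.07 and PDK1 at 1.36 ± 0.10 on the log2 scale. SLC16A1, with 313.2, 350.3 and 316.1 CPM in DTMYC cells in DMSO, against 110.3, 109.1 and 179.3 in parental cells in DMSO, was at 1.56 ± 0.08 without that library.

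Under dTAG47 9 genes were higher and 20 lower in DTMYC than in parental cells by edgeR, against 37.4% and 38.9% of all genes. HK2 remained higher in DTMYC cells, with a log2 difference of 0.59 ± 0.07. GPI, PFKFB3 and RPIA, which did not differ beyond the threshold in DMSO (0.05, 0.10 and 0.07), were at -0.32, -0.42 and -0.51 under dTAG47. These comparisons share libraries with those of dTAG47 against DMSO.

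Isozyme use was described as the share of each isozyme in its family's CPM per kb, counting only the genes described here. HKDC1, a hexokinase-like gene outside them, was therefore left out. It had 45.5 CPM in parental cells in dTAG47 and 40.4 in DMSO, against 0.553 and 0.232 in DTMYC cells. Counting it would lower the parental HK2 shares. HK2 made up 65.7 ± 0.861% of hexokinase mRNA (HK1 and HK2) in DTMYC cells in dTAG47, against 71.7 ± 0.626% in DMSO, and 41.5 ± 1.40% in parental cells in dTAG47, against 42.7 ± 2.15% in DMSO (SD, n = 3 each). SLC2A3 made up 58.2 ± 0.444% of the carrier pair in DTMYC cells in dTAG47, against 53.2 ± 2.26% in DMSO, and 29.3 ± 0.520% in parental cells in dTAG47, against 25.4 ± 2.55% in DMSO. LDHB made up 53.9 ± 0.0569% of lactate dehydrogenase mRNA in DTMYC cells in dTAG47, against 59.8 ± 0.652% in DMSO, and 55.0 ± 2.65% in parental cells in dTAG47, against 59.2 ± 3.33% in DMSO. PDK1 made up 9.77 ± 0.752% of PDH kinase mRNA (PDK1, PDK2 and PDK3) in DTMYC cells in dTAG47, against 11.8 ± 0.541% in DMSO. The dTAG47 and DMSO shares of DTMYC cells did not overlap for these isozymes, nor for any phosphofructokinase subunit or aldolase, so that 6 of 7 families held an isozyme whose shares lay apart. Each such exact two-sided permutation test gave p = 0.1, the smallest that 3 against 3 libraries allow. The lactate carriers overlapped in DTMYC cells, with SLC16A3 at 25.6 ± 1.43% in dTAG47 and 25.3 ± 2.23% in DMSO. So did PDK2 (28.6 ± 0.567% in dTAG47, 27.1 ± 1.37% in DMSO) and PDK3 (61.7 ± 0.941% in dTAG47, 61.1 ± 0.864% in DMSO). Shares in dTAG47 and DMSO also lay apart in parental cells for the glucose carriers, the lactate dehydrogenases and the aldolases. SLC2A3 and LDHB moved there in the same direction as in DTMYC cells. ALDOC moved the other way, with 4.24 ± 0.083% in parental cells in dTAG47, against 4.88 ± 0.283% in DMSO. Parental shares overlapped for the hexokinases, phosphofructokinases, lactate carriers and PDH kinases.

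Between the lines in DMSO every isozyme's shares lay apart in 6 of 7 families, again with an exact permutation p of 0.1 in each. PFKP made up 77.2 ± 0.439% of phosphofructokinase mRNA in DTMYC cells, against 49.5 ± 1.26% in parental cells. SLC16A3 made up 25.3 ± 2.23% of the lactate carrier pair in DTMYC cells, against 57.2 ± 9.53% in parental cells, where replicate 3 had 46.3% and the others 61.5% and 63.8%. ALDOC made up 1.13 ± 0.0266% of aldolase mRNA in DTMYC cells, against 4.88 ± 0.283% in parental cells. The lactate dehydrogenases overlapped, and did not without parental DMSO replicate 3.

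**Figure D3:**
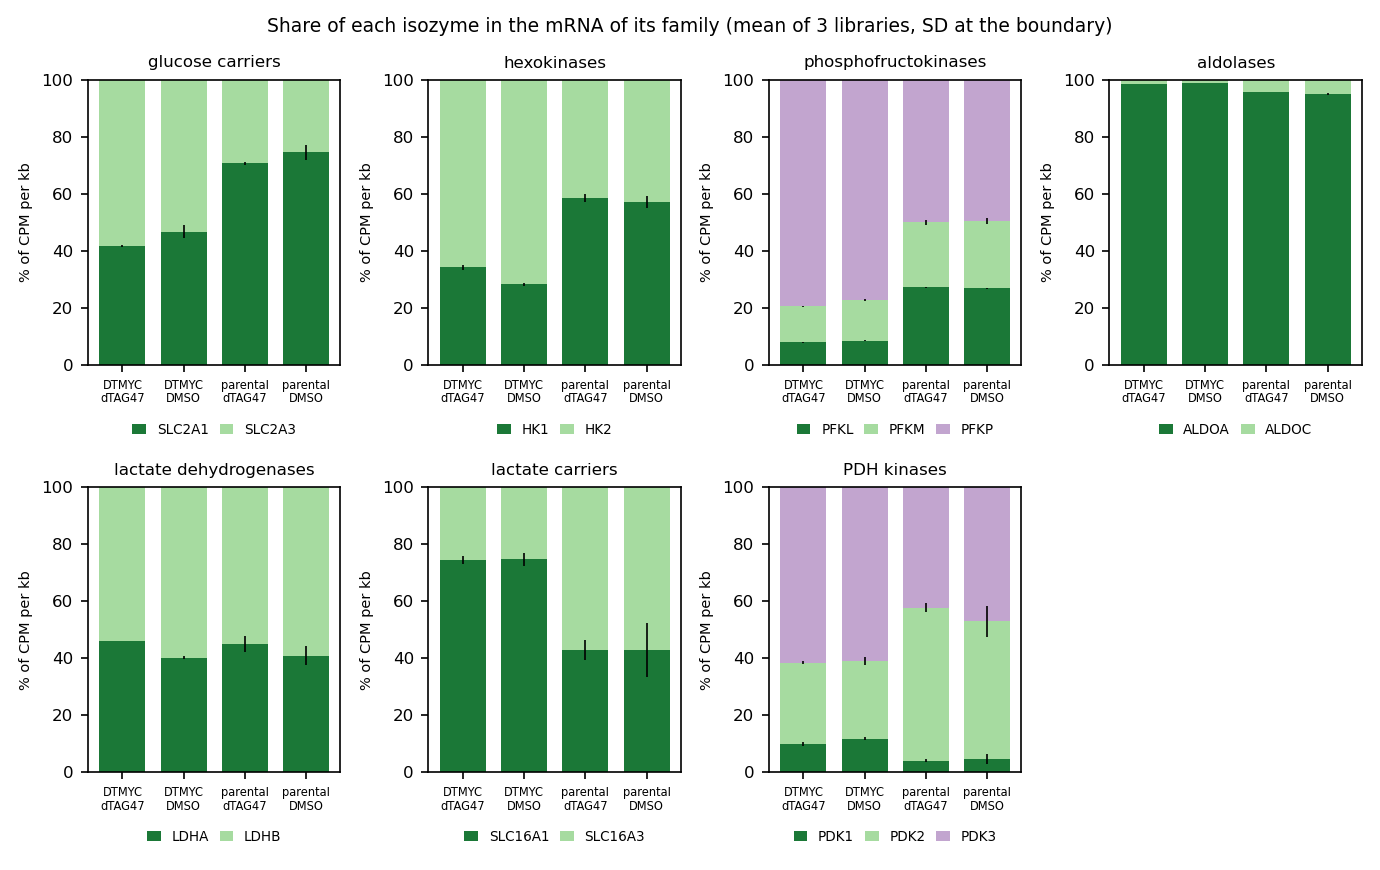
Share of each isozyme in the summed CPM per kb of its family, as means of 3 libraries with SD drawn at the boundaries, for DTMYC dTAG47, DTMYC DMSO, parental dTAG47 and parental DMSO. Only the isozymes drawn were counted, so HKDC1 is not part of the hexokinases. HK2, SLC2A3, PFKP, SLC16A1 and PDK3 took larger shares in both DTMYC groups than in both parental groups, and LDHB shares lay between 53.9% and 59.8% in all 4.

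PRO-seq asked whether transcription of these genes had changed at 4 h. No gene of the 32 tested passed in gene bodies, where edgeR called 0.0% of 13397 genes in either direction, with 7 of the 32 and 1298 of all genes at an unadjusted p under 0.05. DESeq2 called none of the 32, and over all genes 6 that rose and 61 that fell. A fit with a replicate block, on 1 residual degree of freedom, changed this. It called 17 members that fell (53.1%, against 15.9% of all genes) and 3 that rose (9.38%, against 16.6%). No label says that same-numbered libraries were paired, so the fit without a block is the main one. RPIA had 67.06 and 62.54 CPM in dTAG47, against 95.24 and 85.1 in DMSO (log2 change -0.48 ± 0.10, edgeR's unadjusted p 0.00372, adjusted p 0.421). HK2 had 105.7 and 90.36 CPM in dTAG47, against 143.6 and 132.9 in DMSO (-0.50 ± 0.11, edgeR's unadjusted p 0.00419). They were also the 2 genes with the largest falls of mRNA at 24 h. LDHB had 238.7 and 193.5 CPM in dTAG47, against 317.9 and 261.2 in DMSO, at -0.42 ± 0.14, a value that ranged from -0.60 without dTAG47 library 1 to -0.27 without DMSO library 1. SLC16A1 had 136.1 and 126.2 CPM in dTAG47, against 163.2 and 151.5 in DMSO, at -0.26 ± 0.09. In all 4 of these genes both dTAG47 libraries lay below both DMSO libraries. Of the 32 log2 changes 23 were negative, with a median of -0.15, against 0.02 over all genes.

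The changes of nascent transcription at 4 h and of mRNA at 24 h come from different libraries. Across the 32 genes Pearson's r was 0.844 between the log2 changes, with 26 of the same sign and 18 negative in both. Across all 11144 genes tested in both assays r was 0.536, with 8384 of the same sign and 3675 negative in both. These are descriptions across genes, which are not independent replicates. SLC2A3 was at 0.25 ± 0.14 in gene bodies and PFKFB4 at 0.34 ± 0.12, the highest value of the 32. GPI, PFKFB3 and SLC16A3 were at -0.31, -0.20 and -0.17. LDHA had a gene body change of -0.14 ± 0.14 and GAPDH one of -0.24 ± 0.18, beside mRNA changes of 0.00 and -0.08.

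**Figure D4:**
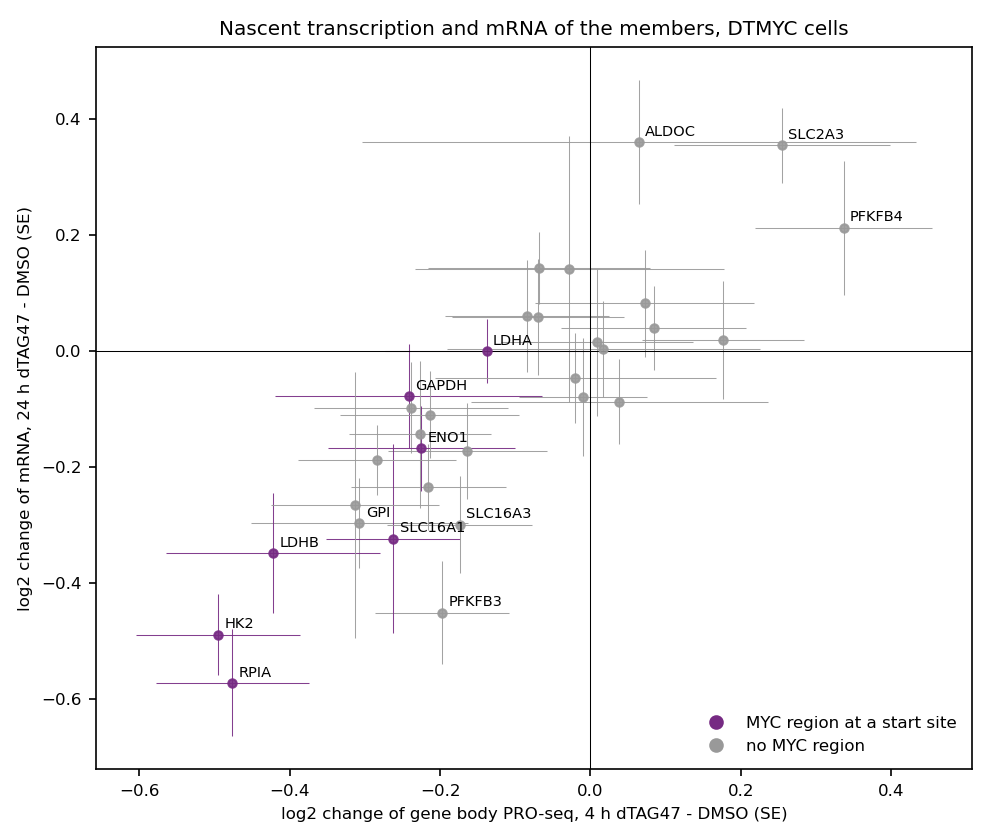
Log2 change of gene body PRO-seq counts at 4 h (horizontal) against log2 change of mRNA at 24 h (vertical), dTAG47 against DMSO in DTMYC cells, with SE bars, for the 32 genes; purple marks genes with a MYC region at a start site. RPIA and HK2 lie lowest on both axes, at -0.48 and -0.57 for RPIA and -0.50 and -0.49 for HK2.

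In promoter-proximal regions 28 genes had enough counts, and none passed by edgeR, where 0.0% of 10226 genes were called. An unadjusted p under 0.05 was found in 3 of the 28, against 661 of all 10226 genes. ENO1 had 729.0 and 805.0 CPM in dTAG47, against 1050 and 939.7 in DMSO (log2 change -0.37 ± 0.15). LDHA was at -0.37 ± 0.17 and RPIA at -0.88 ± 0.40 on 18 and 8 counts in dTAG47, against 28 and 32 in DMSO. SLC2A3 had 762.1 and 959.9 CPM in dTAG47, against 456.8 and 898.4 in DMSO, and its groups overlapped. It passed without DMSO library 2 (log2 change 0.91 ± 0.21, edgeR's adjusted p 0.0396), a fit in which DMSO is 1 library assumed to vary like the dTAG47 pair. HK2, HK1, SLC16A3 and PDK2 were not tested there, and HK2 had 2 or 3 counts per library. The ratio of promoter-proximal to gene body counts, tested in the same 28 genes, gave no call among them and 0.0% over 10129 genes.

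Peaks were called at 3, 0 and 3 of the 37 genes in dTAG47 libraries 1, 2 and 3, against 13 and 11 in DMSO libraries 1 and 3. Over all genes these shares were 2.44%, 0.0% and 0.942% in dTAG47, against 24.0% and 10.0% in DMSO. The deposited peak score was read only within its own list, because the lists differ in length, with 408, 7 and 193 peaks in the dTAG47 libraries, against 4010 and 1519 in the DMSO libraries. In dTAG47 library 1, whose median score was 74.5, ENO1 had 224, LDHB 76 and HK2 53. In dTAG47 library 3, with a median of 60, LDHA had 120, ENO1 41 and GAPDH 20. In DMSO library 1, with a median of 61, HK2 had 529, ENO1 491, LDHA 355, LDHB 233, RPIA 152, SLC16A1 121, GAPDH 110 and DLAT 29, so that all but DLAT were above the median of that list. In DMSO library 3, with a median of 50, LDHB had 234, HK2 217, ENO1 180, SLC16A1 95, GAPDH 75, RPIA 60, LDHA 58 and DLAT 51. ENO1, with 5 CACGTG copies in its region, HK2, GAPDH, LDHA and LDHB thus kept a peak in at least 1 dTAG47 library, and RPIA, SLC16A1 and DLAT had none in any. dTAG47 library 2 had 7 peaks in all and none at a start site of any gene, so its lack of peaks says nothing about single genes.

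**Figure D5:**
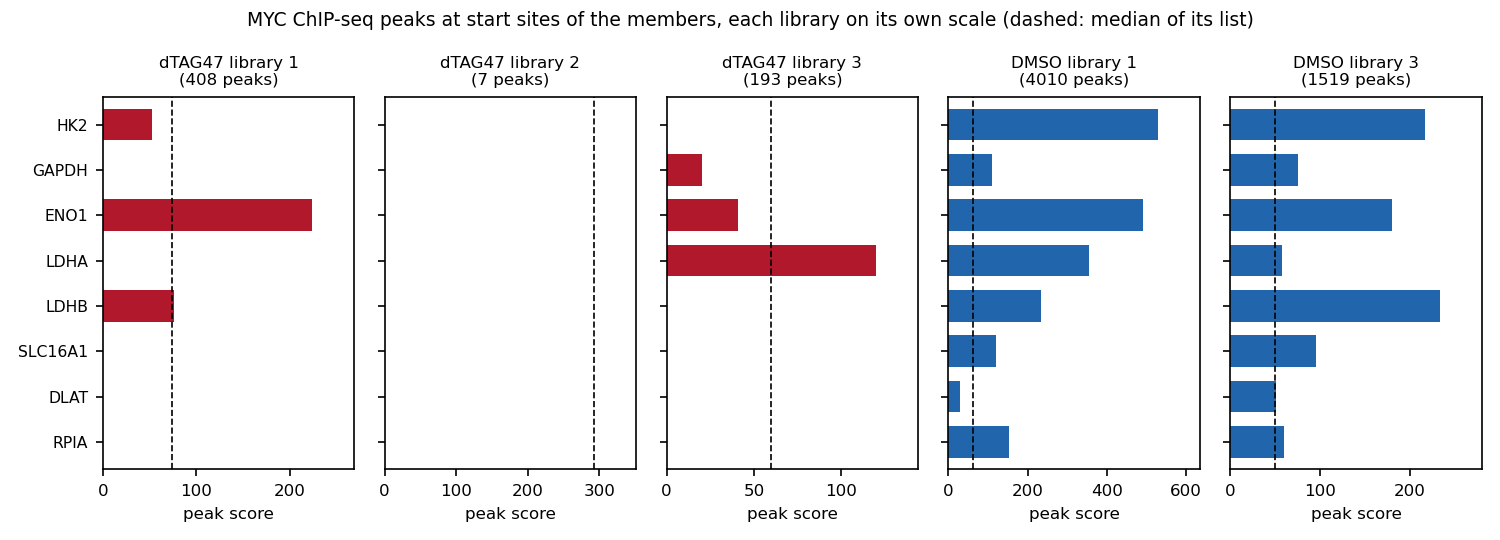
Score of the MYC ChIP-seq peak at the start sites of the 8 genes with a MYC region, 1 panel per library with a scale of its own (dTAG47 libraries in red, DMSO libraries in blue); the dashed line is the median score of that library's list and a missing bar means that no peak was called. ENO1 had a peak in 2 dTAG47 libraries, HK2, GAPDH, LDHA and LDHB in 1, and RPIA, SLC16A1 and DLAT in 0.

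Of the 7 tested genes with a MYC region, HK2 and RPIA fell, and their median mRNA change was -0.32, against -0.05 for the 25 without. Over all genes, the median was -0.14 for those with a region, 15.9% of which fell, and 0.05 for those without, 3.53% of which fell. GAPDH, ENO1 and LDHA, with regions at their start sites, were at -0.08, -0.17 and 0.00. GPI, PFKFB3 and SLC16A3, which fell, had no MYC peak within 1000 bases of a start site in any library. More distant peaks were not listed for them. With the peaks of a single DMSO library, 13 of the 37 genes had a region without DMSO library 3 (35.1%, against 24.0% of all genes) and 11 without DMSO library 1 (29.7%, against 10.0%). An ATAC-seq peak lay at a start site in all 6 libraries for 33 of the 37 genes (89.2%), against 76.7% of all genes. The other 4 were SLC2A3 and ALDOC, each without a peak in 1 DMSO library, and TPI1 and ENO2, without a peak in 3 and 4 libraries. HK2 and RPIA had a peak in every dTAG47 and every DMSO library. ATAC-seq scores move with depth and were not compared between libraries.

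Of 43 tested carriers, isozymes, lactate, PDH and pentose phosphate genes outside the 37, 3 rose (6.98%, against 4.27% of all genes) and 2 fell (4.65%, against 4.44%) in DTMYC cells in dTAG47. These shares are near those of all genes. H6PD, the pentose phosphate enzyme of the endoplasmic reticulum, had 110.4, 106.6 and 104.9 CPM in dTAG47, against 71.84, 72.57 and 70.88 in DMSO (log2 change 0.58 ± 0.09, edgeR's adjusted p 0.00448). LDHD, the D-lactate dehydrogenase, rose by 0.73 on the log2 scale at a low level, with 3.93, 4.43 and 4.08 CPM in dTAG47, against 2.40, 2.43 and 2.70 in DMSO. HKDC1, a hexokinase-like gene, was called at 0.553 CPM on average in dTAG47, against 0.232 in DMSO, while parental cells had 45.5 CPM in dTAG47 and 40.4 in DMSO. PRPS2, which uses the ribose 5-phosphate that RPIA makes, fell by 0.69 ± 0.19 on the log2 scale, and the PDH phosphatase PDP2 fell by 0.29 ± 0.07. Of 12 tested regulators of sugar and oxygen responses 1 fell (8.33%, against 4.44% of all genes). This was ESRRA, a nuclear receptor of energy metabolism, by 0.51 ± 0.11. Of 16 genes of the tricarboxylic acid cycle 1 rose (6.25%, against 4.27% of all genes). This was IDH2, the mitochondrial isocitrate dehydrogenase, by 0.34 ± 0.09. Each list thus held a single call. None of the 43, 12 and 16 genes passed in parental cells or in the difference of the responses.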

How the data were processed

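Groups were taken from the labels. Per the submitters' processing notes cutadapt, STAR, Bowtie2, featureCounts, MACS2, DESeq2 and DiffBind were named with hg19, without versions or roles. The authors deposited raw counts per gene for RNA-seq, and counts for promoter-proximal regions and gene bodies for PRO-seq. A gene body density, which the authors deposited as count divided by length, was not used here. Peak lists deposited by the authors give each peak a score, with calls per library and unknown read depth. The labels name MYC as the ChIP antibody, whereas peak names say HA, the tag. IgG samples were not analysed here.

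Tests used edgeR 4.0.16 (R 4.3.3) on the counts, with these steps (filterByExpr, TMM, quasi-likelihood F-test, two-sided, Benjamini-Hochberg over all genes, threshold 0.05), with all 12 RNA-seq libraries in 1 fit. The fits were tested on simulated data. DESeq2 1.42.0 and leaving out libraries were alternatives. Same-numbered RNA-seq libraries did not all correlate above 0.1, and PRO-seq has only 2 pairs, so no replicate block was used. Start sites came from GENCODE v44 lifted to GRCh37, the same build as hg19. Whether reads were counted by strand is not given in the sources used here, and exons of 14 members overlap another protein-coding gene.

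All members are accounted for. Values in every library were chosen for members past the threshold with dTAG47, the 8 with the smallest adjusted p between lines in DMSO and the 4 with the smallest p in gene bodies; other isozymes are given by library, as shares or by log2 change. The members and lists were chosen with earlier results of these data known.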

Additional observations from a re-analysis of the deposited data

Results flagged for a closer look

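The response of HK2 to dTAG47 differed between the lines by the interaction test, with a log2 difference of -0.57 ± 0.10 (DTMYC minus parental, edgeR's adjusted p 0.0315). HK2 averaged 128 ± 2.58 CPM in DTMYC cells in dTAG47, against 180 ± 7.97 in DMSO, and 85.4 ± 5.12 CPM in parental cells in dTAG47, against 81.0 ± 2.89 in DMSO (SD, n = 3 each). All 3 DTMYC dTAG47 libraries lay below all 3 DTMYC DMSO libraries, and the parental groups overlapped. The call was kept without any 1 parental DMSO library and lost without any 1 of the other 9 libraries, where adjusted p-values reached 0.116.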

How the results depend on the processing

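The numbers of members higher (9) and lower (16) in DTMYC than in parental cells in DMSO, and under dTAG47 (9 and 20), stayed within 1.5 times under all 17 alternatives. So did the 33 members with ATAC-seq peaks under 8 alternatives (28 to 34) and the isozyme shares under 7 (6 families within DTMYC cells, 6 to 7 between lines). In DTMYC cells in dTAG47 against DMSO, 14 members fell and 2 rose with only the 6 libraries of the contrast, against 19.9% and 16.5% of all genes. Leaving out 1 library at a time gave 2 to 13 that fell and 1 to 2 that rose. In parental cells it gave 0 to 7 that fell and 0 to 2 that rose, and DESeq2 called 1 that fell (LDHB), against 1.0% of all genes. For the difference of the responses it gave 0 to 8 negative and 0 to 3 positive calls, and DESeq2 gave 3 and 1, against 1.89% and 2.46% of all genes. The highest of these counts came without parental DMSO replicate 3, where 16.6% of all genes fell and 12.7% rose in DTMYC cells, 10.9% and 9.17% did in parental cells, and 9.58% were negative and 8.3% positive in the difference. The replicate block moved no RNA-seq count of members by over 1.5 times, and in DTMYC cells it lost GPI (adjusted p 0.0531) and added LDHB. In PRO-seq, whose same-numbered libraries correlated at 0.639 over 2 pairs, the replicate block gave 3 members that rose and 17 that fell in gene bodies, and 1 and 1 in promoter-proximal regions, on 1 residual degree of freedom, and over all genes 2226 rose (16.6%) and 2134 fell (15.9%) in gene bodies. Leaving out 1 PRO-seq library gave 0 calls in gene bodies and 0 to 1 that rose in promoter-proximal regions. MYC regions were found at 11 to 13 members with 1 DMSO ChIP-seq library alone, against 10.0% to 24.0% of all genes. The causes of these shifts were not tested. No called member reversed its direction. The read depth behind the peaks is unknown, which limits what a missing peak shows.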
